A study of Mus musculus with 4 samples.

Results

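The interferon response genes examined here are 38 mouse genes that sense, carry or carry out the response to interferon, out of 21887 protein-coding genes on chromosomes 1 to 19, X and Y. They were chosen by name from the known pathway, with earlier results of these data known. Each was measured as the share of its body, and of 2000 bp on either side of each of its ends, that lay inside H3K27me3 peaks. Of the 38 genes, 36 are annotated as protein-coding in RefSeq on the mm10 build. The other two, Mx1 and Mx2, are annotated there as transcribed pseudogenes and are described apart.

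H3K27me3, a histone mark laid down by Polycomb repressive complex and removed by demethylases such as Kdm6b, was mapped by CUT&Tag, where a transposase tethered through an antibody inserts adapters near the mark. Each of the 4 libraries was made from germinal center B cells sorted from the spleen of one mouse, 2 mice lacking Kdm6b in B cells (KO) and 2 wild-type mice (WT), and the study also calls these cells pre-plasma. Mice of both genotypes were C57BL/6 and had received sheep red blood cells with a later boost. Cells were taken at day 12. The driver of the deletion, the deleted part of Kdm6b, and the age and sex of the mice are not stated in the labels.

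Interferons alpha and beta bind the receptor made of Ifnar1 and Ifnar2, and interferon gamma binds the one made of Ifngr1 and Ifngr2. Receptor signalling activates transcription factors, among them Stat2 with Irf9, and the genes they act on carry DNA elements called ISRE and GAS. Genes with these elements encode antiviral effectors, nucleic acid sensors and further transcription factors. Activated B cells respond to both kinds of interferon.

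The peak lists held 80639 and 90417 peaks for KO mice and 87486 and 82292 for WT mice, covering 144 and 236 Mb in KO and 213 and 101.4 Mb in WT. KO replicate 2 and WT replicate 1 therefore had the broad lists, and KO replicate 1 and WT replicate 2 the narrow ones. Each genotype had a list of either kind, but breadth was not balanced between genotypes. The KO list covered more among the broad lists, 236 against 213 Mb, and among the narrow ones, 144 against 101.4 Mb. Read depth is unknown, since the files hold peaks and not reads. A peak list gives no expression, so marker genes show only where the mark lies. Marked is used here as defined in the next paragraph. Among all protein-coding genes, 33.9% and 46.7% were marked in KO and 41.1% and 26.9% in WT. The marker lists are short, and their difference from these shares was not tested. Of 10 germinal center B cell markers, 1 and 3 were marked in KO and 0 and 0 in WT. Of these, Ms4a1 alone was marked in both KO libraries and neither WT library. Of 7 T cell markers, 5 and 6 were marked in KO and 6 and 6 in WT. Of 6 plasma cell markers, 2 and 4 were marked in KO and 2 and 2 in WT, with Prdm1 and Sdc1 marked in all 4 libraries. Of 5 myeloid markers, 4 and 5 were marked in KO and 5 and 3 in WT. Of 4 NK cell markers, 2 and 2 were marked in KO and 2 and 1 in WT. Of 4 erythroid markers, 2 and 3 were marked in KO and 3 and 1 in WT.

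H3K27me3 lay at the ends of a minority of the interferon response genes in every library. A gene was called marked where peaks covered at least 25% of the 4000 bp around either of its ends. By that measure 8 and 15 of the 36 genes were marked in KO mice, where 33.9% and 46.7% of all protein-coding genes were marked, and 10 and 2 of the 36 in the WT libraries, where the shares of all genes were 41.1% and 26.9%. The members' shares were 22.2% and 41.7% in KO, against 27.8% and 5.56% in WT. In each of the 4 libraries the members' share lay under that of all genes, and the KO and WT libraries overlapped in their counts.

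**Figure D1:**
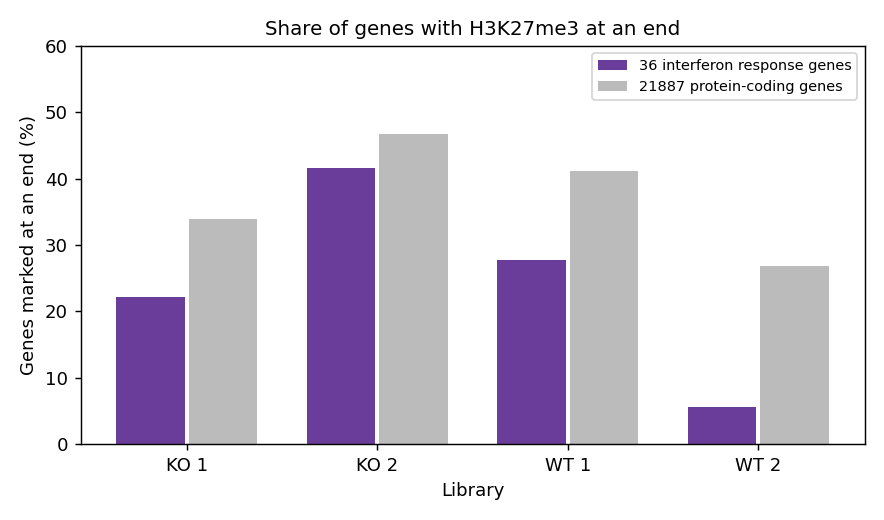
Share of genes marked at an end (y axis, %) in each library (x axis), for the 36 protein-coding interferon response genes (purple) and all 21887 protein-coding genes (grey). The purple bar is the lower of the pair in every library, and WT replicate 2 has the lowest, 5.56%.

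Most of the members that were marked reached the 25% level in some libraries and not in others. In all 4 libraries 2 of the 36 genes were marked, Oas2 and Rtp4, beside 24.7% of all genes. Another 17 of the 36 were marked at neither end in any library, beside 48.9% of all genes. Not marked means under 25%, so some of the 17 had lower coverage at an end. Of those 17, 8 had no peak at all within their ends or body in any library, beside 33.1% of all genes: Gbp3, Ifi44, Ifit3, Irf1, Irf3, Irf9, Stat2 and Trim25. Marked in both KO libraries and neither WT library were 3 of the 36, Ifit1, Gbp2 and Gbp5, beside 1.2% of all genes. The opposite pattern, both WT libraries and neither KO library, was found at 0 of the 36, beside 0.178% of all genes.

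The count of 3 depended on how broad the lists were and on the settings. It was 2, Gbp2 and Irf7, when each list was cut to the same covered length by its highest peaks, beside 0.79% of all genes. It was 1, Gbp2, when only the 50% of peaks with the highest maximum were kept, beside 1.02% of all genes, and 1, Gbp2, with 5000 bp on either side of an end, beside 0.736%. It was 1, Ifit1, when 50% coverage was needed, beside 0.704%. With 1000 bp on either side it was 4, beside 1.82%, and when 10% coverage was enough it was 4, beside 1.89%. It was 8 without KO replicate 1, beside 8.42% of all genes. Without KO replicate 2 it was 4, beside 2.04%, without WT replicate 1 it was 4, beside 7.64%, and without WT replicate 2 it was 3, beside 1.38%.

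The pattern that followed list breadth was also present. The mark was found in KO replicate 2 and WT replicate 1 alone at 4 of the 36 genes, Bst2, Ifit2, Oas1a and Rsad2, beside 5.52% of all genes. It was found in KO replicate 2 alone at 5, Dhx58, Ifngr2, Oas3, Oasl2 and Zbp1, beside 7.22%, and in KO replicate 1 and WT replicate 2 alone at 0, beside 0.0457%. Over the gene bodies, peaks covered at least 25% of 4 and 5 members in KO, beside 17.7% and 25.8% of all genes, and of 4 and 0 in WT, beside 23.2% and 13.3%. The bodies of 12 of the 36 had no coverage in any library, beside 36.9%. The part of list breadth in these patterns was not tested.

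**Figure D2:**
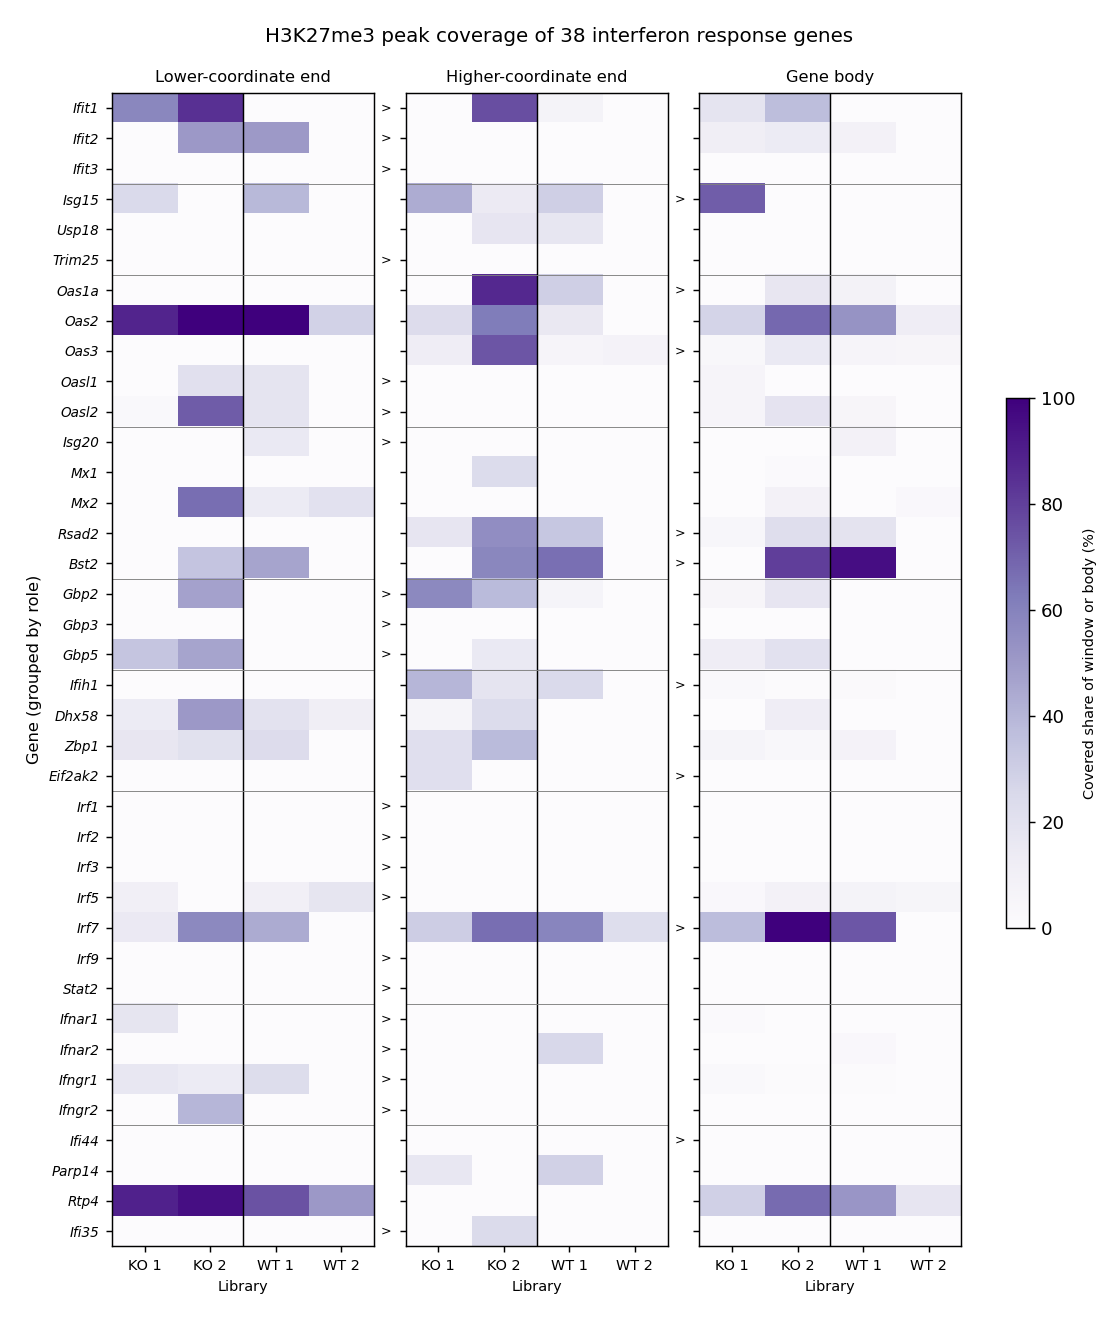
Share of each window inside H3K27me3 peaks (colour, %) for the 38 genes, by library, with the KO libraries left of the WT libraries and a panel for each gene end and the body. A mark to the right of a row shows the end that is the gene start, and the windows of Ifit1 and Gbp5 at the start are coloured in both KO libraries and empty in both WT libraries.

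Across all 20791 end windows with any coverage, limma called none at a Benjamini-Hochberg adjusted p under 0.05, so 0% of windows and 0 of the 36 member windows were called in either direction, with a smallest adjusted p of 0.907. At an unadjusted p under 0.05, limma gave 701 windows higher and 109 lower in KO. Among members 4 windows were higher at that level, at Gbp5, Ifit1, Zbp1 and Gbp2, beside 3.37% of all windows, and 0 were lower, beside 0.524%. Of 13805 gene bodies tested, limma called 2 higher in KO, or 0.0145%, and 0 lower, and neither of the 2 was a member. At an unadjusted p under 0.05 limma gave 1 member body higher, that of Gbp5, beside 1.56% of all bodies, and 0 lower, beside 0.34%. With 2 libraries a genotype an exact two-sided permutation test cannot give a p under 0.33.

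The difference in covered share averaged 7.69 percentage points, KO minus WT, over the members' 72 end windows, beside 3.47 points over all genes' windows, and the median was 0 in both. Peaks covered more in KO at 29 of the 72, more in WT at 7, and had equal shares at 36. Of the 43774 end windows of all genes, peaks covered more in KO at 14501, more in WT at 5611, and had equal shares at 23662, so the lean towards KO was present there too. Over the 36 bodies the mean difference was 5.00 points and the median 0.35, beside 2.73 and 0 for all genes. Both KO libraries lay above both WT libraries at 8 of the 36 member windows with coverage, beside 13.9% of all tested windows, and both lay below at 1, at Irf5, beside 2.46%.

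Ifit1, an antiviral protein that binds viral RNA lacking the host's cap methylation, had peaks at its start in both KO mice and in neither WT mouse. The gene lies at chr19:34640889-34650009 on the plus strand of mm10. Its start window was 58.2% and 84.6% covered in the KO libraries, against 0% and 0% in the WT libraries, so that the groups did not overlap. The difference was 71.4 percentage points with a limma standard error of 11.6 (unadjusted p = 0.00915, adjusted p = 0.907 over all end windows, n = 2 each). An exact two-sided permutation test gave p = 0.33, the smallest it can give with this design. Ifit1 was singled out with earlier results of these data known, so these p-values are no independent evidence of a difference there.

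The start of the gene lay inside a peak in both KO libraries. In KO replicate 1 a peak of 1360 bp covered the start and a second of 966 bp followed it, while KO replicate 2 had peaks of 2239 and 1501 bp at the same places. By maximum signal, the authors' value for each peak, the pair stood at percentiles 21.0 and 5.53 of the list in KO replicate 1, and at percentiles 87.7 and 75.9 in KO replicate 2. The peaks of KO replicate 1 were thus among the lower ones in its list and those of KO replicate 2 among the higher ones. In WT replicate 1 the peaks nearest the start lay 2554 bp below and 10830 bp above it, and in WT replicate 2 they lay 43695 bp below and 15391 bp above.

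KO replicate 1 had peaks at this start with a list that covered 144 Mb, against 213 Mb in WT replicate 1, which had none there. When all lists were cut to the same covered length, the start window of Ifit1 was 0% and 56.0% covered in KO and 0% and 0% in WT. With the 50% of peaks of highest maximum the values were 0% and 84.6% in KO and 0% and 0% in WT. In both settings the coverage in KO came from replicate 2. With 1000 bp on either side the start was 76.0% and 87.5% covered in KO and 0% and 0% in WT.

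The other end and the body of Ifit1 showed smaller differences. At its other end the window was 0% and 75.6% covered in KO and 7.28% and 0% in WT, a difference of 34.1 points (exact permutation p = 1), and the groups overlapped. The body was 18.0% and 36.8% covered in KO and 0% and 0% in WT, a difference of 27.4 points with a standard error of 8.19 (limma adjusted p = 1). The body includes the 2000 bp after the start that the start window also holds, so the body difference partly repeats that of the start. Of the 13121 bp from 2000 bp before the gene to 2000 bp after it, 2239 bp lay in peaks of both KO libraries and neither WT library, 0 bp in both WT libraries and neither KO library, and 4232 bp in KO replicate 2 alone.

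The start window of Ifit1 is shared. Only 61 bp separate Ifit1 from Ifit1bl2, a related gene that is read from the minus strand away from it, and both lie within the longer Ifit1bl1. The start window of Ifit1bl2 was 58.2% and 83.0% covered in KO and 0% and 0% in WT, so peaks over this stretch cannot be given to one of the pair. The body of Ifit1bl2 was 27.1% and 86.3% covered in KO and 60.2% and 0% in WT, where the genotypes overlapped. How reads matching several of these related genes were placed is not stated in the labels, and the Ifit, Oas and Gbp families hold similar copies, so their values are uncertain to that extent.

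Of the neighbours in the cluster, Ifit1bl2 alone had a start covered in both KO libraries and in neither WT library. Ifit2, which binds RNA and lies at the other side of the cluster, was 0% and 50.6% covered at its start in KO and 50% and 0% in WT, a difference of 0.28 points. Ifit3, a partner that stabilises the IFIT complex, had 0% at both ends and over the body in all 4 libraries. Ifit3b, its close relative, had 0% and 51.7% at the start in KO and 34.2% and 0% in WT. The Ifit2 and Ifit3b starts carried the mark only in the library of each genotype with the broad list, and the genotypes overlapped.

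Of the other genes around the cluster, Ch25h, Slc16a12 and Ifit1bl1 were marked at the start in every library, and Lipa and Pank1 in none. Ch25h, which makes the antiviral sterol 25-hydroxycholesterol, was fully covered at its start (100%) in both KO libraries and 100% and 95.2% covered in WT. Slc16a12, a transporter on the other side, was 100% and 100% covered in KO and 100% and 85.2% in WT. Ifit1bl1 had 51.6% and 71.3% in KO and 100% and 59.2% in WT, 18.1 points lower in KO on average. Lipa, a lysosomal lipase, had 8.75% and 17.8% in KO and 13.1% and 0% in WT, and Pank1, a coenzyme A enzyme, had 0% in all 4.

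From the start of Ifit2 to the end of Ifit1, a stretch of 99.5 kb, peaks covered 14.0% and 36.7% in KO and 19.2% and 0.597% in WT. The number of peaks there was 11 and 18 in KO and 12 and 1 in WT. The cluster as a whole was therefore covered in both genotypes, with the highest share in KO replicate 2 and the lowest in WT replicate 2.

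**Figure D3:**
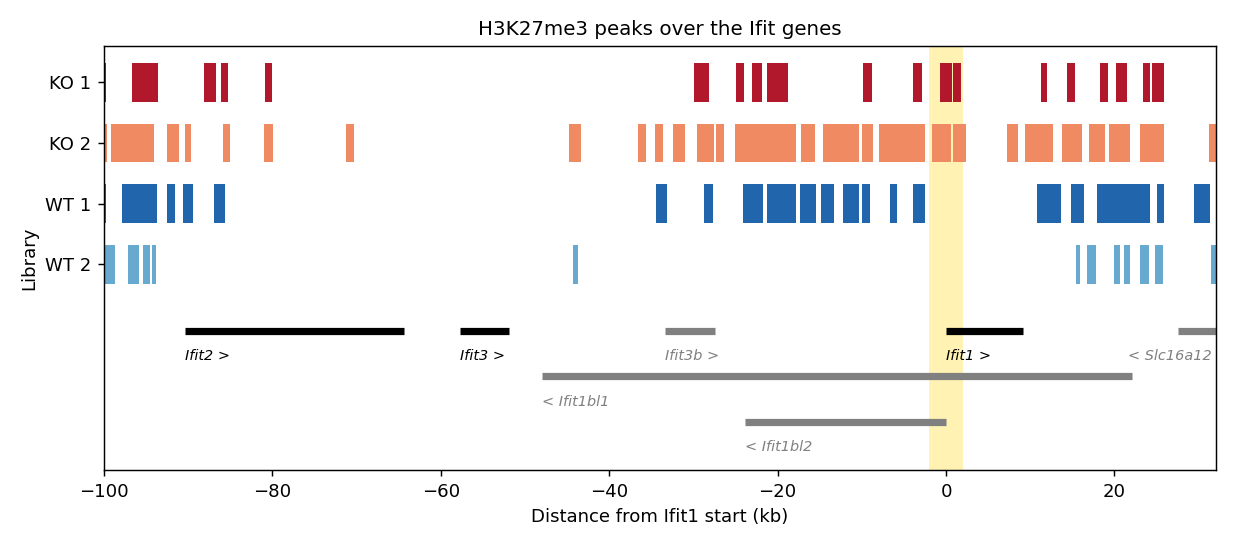
Peaks over the Ifit genes in the 4 libraries (rows, KO above WT) against distance from the Ifit1 start in kb (x axis), with genes below as bars and their direction as arrowheads. The shaded 4000 bp around the Ifit1 start hold peaks in both KO rows and none in either WT row, while Ifit3 lies in a stretch free of peaks in all 4.

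**Figure D4:**
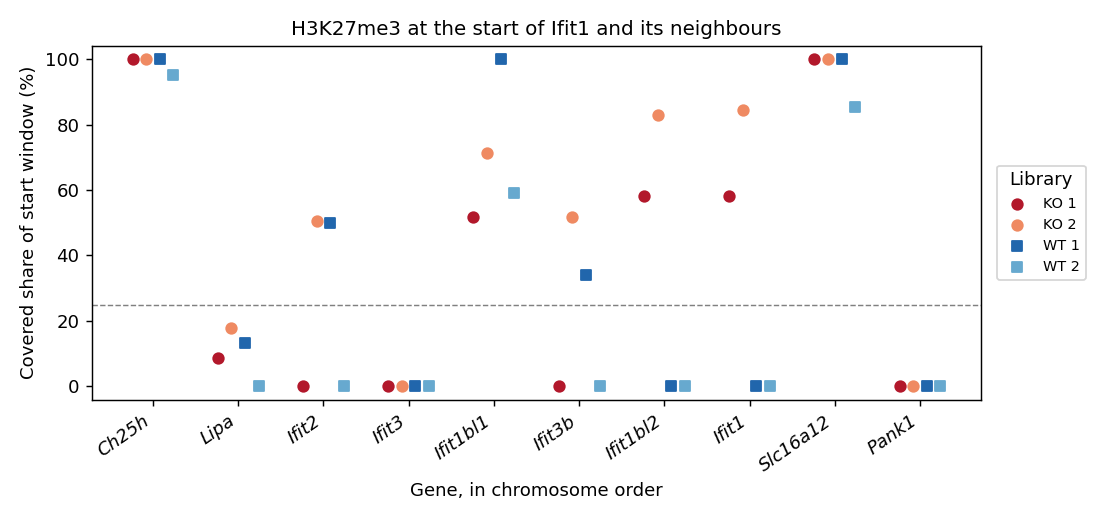
Covered share of the start window (y axis, %) for genes of the Ifit cluster and its flanks in their genome order (x axis), 1 point per library, with a dashed line at the 25% that counts as marked. Ifit1 and the adjoining Ifit1bl2 are the genes with both KO points above 50% and both WT points at 0%.

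The sequences around the starts of Ifit1 and Ifit3 are shown because the genes share the same pair of ISRE matches while only Ifit1 had peaks. They run from 250 bp before to 50 bp after each start, are taken from RefSeq on GRCm38.p6 (the mm10 build), and lie on the plus strand at chr19:34640639-34640938 and chr19:34583279-34583578. Capitals mark matches to the ISRE core, which was searched as GAAANNGAAA or, on the other strand, TTTCNNTTTC.
Ifit1: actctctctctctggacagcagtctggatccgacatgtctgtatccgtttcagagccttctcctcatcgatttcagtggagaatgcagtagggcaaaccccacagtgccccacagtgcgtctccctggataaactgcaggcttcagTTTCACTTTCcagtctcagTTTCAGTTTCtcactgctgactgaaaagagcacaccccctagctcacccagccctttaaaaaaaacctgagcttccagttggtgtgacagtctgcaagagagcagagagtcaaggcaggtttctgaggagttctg
Ifit3: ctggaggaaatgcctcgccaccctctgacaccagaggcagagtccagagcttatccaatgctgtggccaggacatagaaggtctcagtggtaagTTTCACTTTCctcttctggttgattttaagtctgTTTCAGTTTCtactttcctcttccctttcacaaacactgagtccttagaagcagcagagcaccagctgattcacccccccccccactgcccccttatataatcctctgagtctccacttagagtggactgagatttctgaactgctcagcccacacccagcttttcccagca

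In Ifit1 the matches TTTCACTTTC and TTTCAGTTTC ended 95 and 76 bp before the start. In Ifit3 the same matches stood in the same order and ended 147 and 113 bp before its start. That Ifit3 start, at 34583529, is the one held with the sequence. The gene bounds used for the Ifit3 windows and body begin at 34583119, so both matches lie inside those bounds. All 300 bp of the Ifit1 region lay inside peaks in both KO libraries (100% and 100%) and none in either WT library (0% and 0%). None of the Ifit3 region did in any library. The Ifit1 region held 4 CpG and the Ifit3 region 1, beside a median of 13 in 17492 protein-coding genes.

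Among the guanylate-binding proteins, interferon-induced GTPases that attack the membranes of intracellular pathogens, Gbp5 and Gbp2 carried the mark in both KO libraries and in neither WT library. Gbp5, which also promotes inflammasome assembly, lies at chr3:142496934-142522344. Its start window was 33.8% and 46.3% covered in KO and 0% and 0% in WT, without overlap. The difference was 40.02 points with a limma standard error of 6.51 (adjusted p = 0.907). At equal covered length this window was at 0% in all 4 libraries.

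Gbp2, at chr3:142620663-142638008, differed at the end away from its start. That window was 57.2% and 38.2% covered in KO and 6.15% and 0% in WT, a difference of 44.6 points with a limma standard error of 9.14 (adjusted p = 0.907). The groups did not overlap, and at equal covered length the values were 39.1% and 38.2% in KO and 0% and 0% in WT. The start of Gbp2 was covered in 1 library, with 0% and 47.3% in KO and 0% and 0% in WT.

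The start regions of both genes are shown because they differ in how the mark fell on them: the region of Gbp5 was 77.0% and 95.7% covered in KO and 0% and 0% in WT, while that of Gbp2 had peaks in KO replicate 2 alone. They lie on the plus strand of GRCm38.p6 at chr3:142496684-142496983 and chr3:142620413-142620712, from RefSeq, with capitals marking the ISRE core match as above.
Gbp5: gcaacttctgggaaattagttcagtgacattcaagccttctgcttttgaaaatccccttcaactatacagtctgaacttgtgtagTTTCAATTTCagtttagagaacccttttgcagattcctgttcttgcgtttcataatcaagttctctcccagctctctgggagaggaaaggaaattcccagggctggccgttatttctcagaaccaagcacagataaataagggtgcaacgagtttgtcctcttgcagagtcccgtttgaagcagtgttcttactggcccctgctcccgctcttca
Gbp2: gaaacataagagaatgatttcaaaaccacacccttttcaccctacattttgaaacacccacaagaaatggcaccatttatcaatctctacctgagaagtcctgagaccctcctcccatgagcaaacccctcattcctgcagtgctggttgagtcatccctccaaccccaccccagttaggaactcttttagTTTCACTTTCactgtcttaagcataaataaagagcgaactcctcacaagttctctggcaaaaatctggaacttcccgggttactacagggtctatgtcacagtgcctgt

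The match ended 156 bp before the start in Gbp5 and 50 bp before it in Gbp2. The next genes of the cluster did not follow. Gbp3 had 0% at both ends and over the body in all 4 libraries. Gbp7, which is no member, was 94.0% and 100% covered at its start in KO and 100% and 63.4% in WT. Over the cluster's 141 kb, peaks covered 11.6% and 19.7% in KO and 10.8% and 3.62% in WT, and the genotypes did not overlap there, though KO replicate 1 and WT replicate 1 differed by under 1 percentage point.

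**Figure D5:**
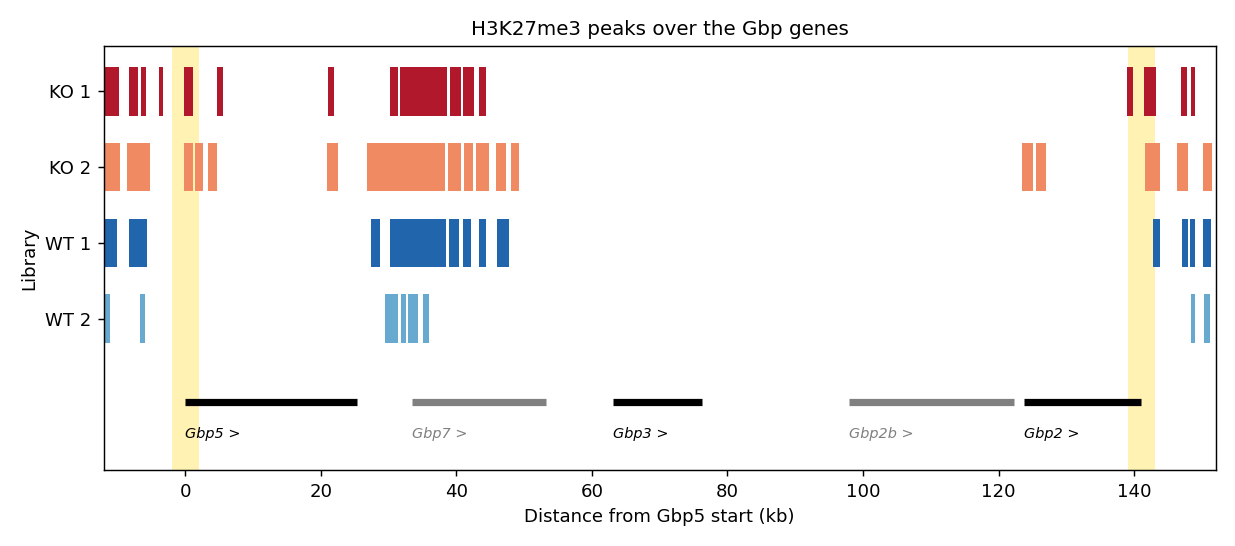
Peaks over the Gbp genes in the 4 libraries (rows, KO above WT) against distance from the Gbp5 start in kb (x axis), with genes below as bars and arrowheads for direction. The shaded windows, the Gbp5 start and the far end of Gbp2, hold peaks in both KO rows, and of the WT rows only replicate 1 has a peak edge, 6.15% of the Gbp2 window.

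The 2′-5′ oligoadenylate synthetases, which sense double-stranded RNA and activate RNase L, carried the mark at several of their genes. Oas2 was 88.2% and 100% covered at its lower-coordinate end in KO and 100% and 28.2% in WT. At its other end it was 23.0% and 62.5% covered in KO and 15.4% and 0% in WT, with both KO libraries above both WT libraries and a difference of 35.1 points (limma adjusted p = 0.907). Oas3 was 11.8% and 73.7% covered at its start in KO and 5.53% and 7.80% in WT, where KO replicate 1 stood only slightly above the WT libraries.

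Oas1a had 0% and 87.0% at its start in KO and 29.6% and 0% in WT, so that the genotypes overlapped. Oasl2, an oligoadenylate synthetase-like protein, had 2.10% and 71.6% in KO and 18.1% and 0% in WT. Oasl1, which in mouse restrains translation of Irf7, had 0% and 20.9% in KO and 18.2% and 0% in WT, under the level counted as marked. In all 3 the broad lists held the higher values. The Oas cluster as a whole, 177 kb, was 19.2% and 42.5% covered in KO and 34.7% and 16% in WT.

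Bst2 and Rsad2, both antiviral effectors, were marked in the broad lists alone. Bst2, the tetherin that holds budding virus at the cell surface, had 0% and 58.2% at its start in KO and 66.1% and 0% in WT, and its body had 0% and 80.2% in KO and 95.6% and 0% in WT. Rsad2, the viperin that makes a chain-terminating nucleotide, had 17.5% and 55.4% at its start in KO and 32.9% and 0% in WT. At both genes the genotypes overlapped.

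Isg15, a ubiquitin-like modifier, differed from these in that its highest value was in a narrow list: 43.6% and 14.2% at the start in KO and 29.6% and 0% in WT. Peaks covered 71.3% and 0% of its short body in KO and 0% and 0% in WT. The window at its other end also holds the start of Agrn, a basement membrane protein gene, and was 24.9% and 0% covered in KO and 38.8% and 0% in WT. Usp18, which removes Isg15 from proteins, had 0% and 17.5% at its higher-coordinate end in KO and 17.0% and 0% in WT, and Trim25, a ligase that promotes RIG-I signalling, and Ifi44 had 0% throughout. Mx2, a dynamin-like GTPase gene, had 0% and 66.5% at its lower-coordinate end in KO and 13.8% and 20.3% in WT, and Mx1 had 0% and 23.6% at its higher-coordinate end in KO and 0% and 0% in WT.

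Rtp4, a receptor transporter with antiviral activity, was covered in every library at its lower-coordinate end, with 89.2% and 95.2% in KO and 74.4% and 50.6% in WT. The groups did not overlap, the difference was 29.7 points with a limma standard error of 10.9 (adjusted p = 0.907), and Masp1, a complement protease gene, ends in the same window. Parp14, an ADP-ribosyltransferase, had 16.3% and 0% at its higher-coordinate end in KO and 28.9% and 0% in WT.

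Among the nucleic acid sensors, Zbp1, which recognises Z-form nucleic acid, had 21.4% and 38.2% at its higher-coordinate end in KO and 0% and 0% in WT. The groups did not overlap, with a difference of 29.8 points and a limma standard error of 7.98 (adjusted p = 0.907), although KO replicate 1 lay under the level counted as marked. Ifih1 (MDA5), which senses long double-stranded RNA, had 39.9% and 18.0% at its start in KO and 24.8% and 0% in WT. Dhx58 (LGP2), a helper of the RNA sensors, had 13.7% and 50.8% at its lower-coordinate end in KO and 19.4% and 11.3% in WT. Both overlapped between genotypes at these windows, while at the other end of Dhx58, which Kat2a shares, the values were 6.00% and 23.8% in KO and 0% and 0% in WT. Eif2ak2 (PKR), a kinase that halts translation on double-stranded RNA, had 21.2% and 0% at its start in KO and 0% and 0% in WT.

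Of the 7 transcription factor genes, 6 were marked at no end in any library, beside 48.9% of all genes. Irf7, the amplifier of interferon alpha production, was the one marked, with 30.3% and 66.5% at its start in KO and 58.6% and 22.5% in WT. Its body was 37.1% and 100% covered in KO and 73.0% and 0% in WT. At both places the genotypes overlapped. At equal covered length the Irf7 start had 30.3% and 66.5% in KO and 0.65% and 22.5% in WT, so that KO replicate 1 then lay above both WT libraries.

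Irf5, a factor for inflammatory cytokine genes, was the 1 member window with both KO libraries below both WT libraries, with 10.3% and 0% at its start in KO and 10.3% and 17.7% in WT. The higher KO value was 10.275%, in replicate 1, and the lower WT value 10.3%, in replicate 1, so this order rests on a near tie. The body of Irf5 had coverage in all 4 libraries, at 3.07% and 8.74% in KO and 7.36% and 5.13% in WT, where the genotypes overlapped. Irf1, Irf3, Irf9 and Stat2 had no peak at either end or over the body in any library, and Irf2 was marked in none. Ifi35, which takes part in interferon-induced signalling, and Isg20, an exonuclease, were marked in none as well. Ifi35 had 0% and 23.95% at the end away from its start in KO and 0% and 0% in WT, and Isg20 had 0% and 0% at its start in KO and 15.1% and 0% in WT.

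The 4 receptor genes had little coverage over the 4000 bp windows. Ifngr2 had 0% and 40% at its start in KO and 0% and 0% in WT. Ifngr1 had 16% and 13.8% in KO and 22.8% and 0% in WT, Ifnar1 had 17.8% and 0% in KO and 0% and 0% in WT, and Ifnar2 had 0% at its start in all 4 libraries. Over the 300 bp from 250 bp before to 50 bp after the start, Ifngr1 was 100% and 100% covered in KO and 100% and 0% in WT. There Ifnar1 had 100% in KO replicate 1 alone, Ifngr2 had 9% in KO replicate 2 alone, and Ifnar2 had 0% in all 4 libraries. At the other end of Ifnar2, which reaches into Il10rb, WT replicate 1 alone had a peak, at 25.6%, just inside the level counted as marked. The end of Isg15 at 24.9% in KO replicate 1 lay just outside it.

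The interferon elements were searched in the sequence at the members' starts. Start regions of 300 bp were held for 30 of the 36 genes, and 14 of the 30 contained the ISRE core on either strand, beside 3.4% of 17492 genes. The GAS core, searched as TTCNNNGAA, which reads the same on both strands, was in 11 of the 30, beside 7.78%. A match is a run of letters and not a shown binding site.

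Peaks touched the start region of 7 and 13 of the 30 genes in KO, beside 31.9% and 43.7% of all genes, and of 7 and 0 in WT, beside 38.7% and 24.6%. The count touched in both KO libraries and neither WT library was 2, Ifit1 and Gbp5, beside 1.83%, the count touched in both WT libraries and neither KO library was 0, beside 0.349%, and the count touched in no library was 15, beside 49.3%. The 14 members marked in at least 1 library had a median of 6 CpG in the start region and the 16 marked in none had 15.5. For all genes the order was the other way, with 17 in those marked in at least 1 library and 8 in those marked in none. This contrast is a description of 30 genes and was not tested.

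Other genes of the pathway were taken from lists by their function, and limma called 0 of each list in the test of gene ends, by the adjusted p above. The counts that follow stand beside 33.9% and 46.7% of all genes marked in KO and 41.1% and 26.9% in WT. Of 11 genes of receptor signalling outside the members, 4 and 5 were marked in KO and 4 and 2 in WT. Of the 11, 2 were marked in both KO libraries and neither WT library, beside 1.2% of all genes. The opposite pattern was found at 0, beside 0.178%. Socs1, an inhibitor of JAK kinases, was among the 2, with 39.1% and 33.7% at its more covered end in KO and 0% and 0% in WT. Stat3, a transcription factor activated by many cytokines, followed with 31.2% and 39.4% in KO and 22.5% and 0% in WT, where WT replicate 1 lay just under the level.

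Of 9 interferon ligand genes, 1 and 5 were marked in KO and 4 and 2 in WT. Of 18 genes of the induction pathway, 4 and 10 were marked in KO and 4 and 3 in WT, with Cgas, the cytosolic DNA sensor, among the 2 marked in all 4 libraries. Of 65 further interferon-stimulated genes, 21 and 28 were marked in KO and 23 and 19 in WT. In that list 18 were marked in all 4 libraries, beside 24.7% of all genes, among them Ifitm3, which blocks virus entry, and Cxcl9, a chemokine. In the same list 36 were marked in none, beside 48.9%. In the ligand, induction and further lists, 0 genes reached the 25% level in both libraries of KO only or of WT only. Among all genes those patterns are rare, at 1.2% and 0.178%, so a count of 0 in lists of this size tells little.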

How the data were processed

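H3K27me3 was measured by CUT&Tag in germinal center B cells of 2 KO and 2 WT mice. Per the submitters' processing notes, the tools were SEACR, deepTools, Bowtie2 2.4.2, SAMtools 1.11 and Trim Galore 0.6.6, with mm10. Their settings, roles and the peak-calling control are not stated there. The authors deposited 1 peak list per library with each peak's total and maximum signal; these signals were used only to rank peaks within a list.

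Covered shares were computed from peak positions with Python 3.11.15 and tested with limma 3.58.1 (R 4.3.3, lmFit and eBayes) on the share itself, over windows with coverage in any library, with Benjamini-Hochberg adjustment. The fit was also run on simulated data. The settings and outcome of that run are not given here, so it is no evidence that the fit suits these covered shares. Groups came from the genotype label. Gene bounds came from RefSeq on mm10, and strands from the 17492 genes with a start region. Named genes were the members, their cluster neighbours and listed pathway genes with the mark in one genotype or in all libraries. Members and lists were chosen with earlier results of these data known. Alternatives covered window size, mark level, peak selection, filter and left-out libraries.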

Additional observations from a re-analysis of the deposited data

How the results depend on the processing

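Of 160 values for 18 members other than Ifit1, 127 kept their direction, 21 turned and 12 became 0. Some of the 127 could not have turned. At the windows used, Gbp5 and Ifngr2 had 0% in both WT libraries, and Ifnar2 had 0% in both KO libraries. There, leaving out a library or keeping fewer peaks could only keep the direction or give 0. The 127 therefore includes values whose direction was not at risk. Without the filter on coverage, limma called 22 end windows higher and 5 lower in KO, none of them members, but most windows then had no spread at all. The count of bodies higher in KO, 2 as reported, was 0 with covered length as a covariate, 0 with a variance trend, 0 at equal covered length, 8 with no filter and 0 without any 1 library; 1 body was lower at equal covered length. Members marked in KO only, 3 as reported, numbered 1 with the 50% of peaks of highest maximum, 1 with 5000 bp windows, 1 at 50% coverage, and 3 to 8 leaving out 1 library, the 8 without KO replicate 1. Members marked in WT only ranged from 0 to 2, the 2 without WT replicate 2, where 2.71% of all genes were marked in WT only, beside 0.178% with all libraries. The mean number marked was 5.5 in KO and 2 in WT at equal covered length, and 19 in KO and 12 in WT at 10% coverage. The share of all genes marked at these settings was not computed, so these means describe the members alone.

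The start of Ifit1 kept its direction in each alternative run, but both WT libraries had 0% in its window. Leaving out a library, keeping fewer peaks or narrowing the window could therefore not turn the difference. The runs that could have turned it gave 67.5 points with covered length as a covariate and 41.0 points with 5000 bp windows. The other end of Ifit1 had a difference of 0 points at equal covered length and -3.64 to 71.9 points leaving out 1 library, the lowest without KO replicate 2. The members' median difference at ends was 1.1 points with 5000 bp windows; over bodies it was 0 at equal covered length, 0 with the highest peaks and 0 to 1.1 leaving out 1 library, the highest without WT replicate 1.

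Differences that turned were, with covered length as a covariate, -15.8 points at Ifit2 and -3.79 at Irf7; at equal covered length, -3.90 at Oas3 and -8.46 at Dhx58; and with 1000 bp windows, -4.28 at Ifit2 and -3.10 at the lower end of Zbp1. Leaving out 1 library gave ranges of -25.0 to 25.6 points at Ifit2, -0.713 to 28.9 at Isg15, -14.8 to 72.2 at Oas1a, -5.89 to 65.9 at Oas2, -6.93 to 62.6 at Oasl2, -37.0 to 29.1 at Bst2, -1.60 to 35.4 at Dhx58, -4.61 to 18.6 at the lower end of Zbp1, -10.3 to 25.9 at Irf7 and -20.7 to 8.14 at Parp14. The cause was not tested. No paired analysis was possible because the labels give no replicate numbers; those used here follow the order of deposit and pair no mice. Read depth is unknown, and 2 mice a genotype limit each comparison.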
